A study of Drosophila melanogaster with 21 samples.

Results

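The genes described here are those named after proteins of the cytoplasmic ribosome of Drosophila melanogaster. They were taken by name: every gene called RpL or RpS followed by a digit, with RpLP0, RpLP1, RpLP2 and sta, and without the genes of the mitochondrial ribosome. The rule gave 92 genes, 39 of the small and 53 of the large subunit, among 13955 genes in the brain and ovary tables. Of the 92, 90 were among the 11010 genes of the S2 table, and RpL7-like and RpS28a were not analysed there.

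Each ribosome carries 1 copy of most of these proteins beside the ribosomal RNAs, so the subunits need them in matched amounts. In flies, loss of 1 copy of many of the genes gives the Minute phenotype of slow development and short bristles. Several of the genes have a second copy, and some second copies are known for expression in the germline, RpS5b in the ovary and RpL22-like in the testis. The ovary makes large amounts of ribosomes, which nurse cells pass on to the egg.

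The study asked which genes the zinc finger factor Saft (CG11247) regulates, and sequenced RNA from 21 libraries. S2 cells are a line from embryos with features of blood cells. All 6 S2 libraries came from 1 clone, 9C, which expresses the plant protein OsTir1 and has a FLAG and auxin-inducible degron tag on Saft, so that auxin triggers its breakdown. Cells given auxin at 500 µM for 24 h or for 48 h were set against untreated cells, with 2 libraries in each of the 3 groups. Auxin on cells without the tag was not analysed here. The flies carried frame-shift alleles made with CRISPR-Cas9 in an isogenised white stock, which was also the wild type. Mutant 1 lacks 1 bp in exon 1 of CG11247 and mutant 2 lacks 2 bp in exon 2. The labels list both alleles over the balancer TM3,Sb and do not say whether the dissected females were homozygous. Tissues came from mated females of 3 to 4 days, with 40 pooled brains in each brain library (n = 2 for each genotype) and 5 ovary pairs in each ovary library (n = 3 for each genotype).

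Brain libraries held 39012121 to 45641704 counts, ovary libraries 14099168 to 21504143 and S2 libraries 6423866 to 9145515. Neuronal markers fitted the labelled tissues, with sums of 14000 to 15500 CPM (counts scaled to a common library size) in brain and 4.5 to 6.89 CPM in ovary. The brain libraries also held markers of other tissues. In wild-type brain, fat body markers summed to 19000 to 24300 CPM and hemocyte markers to 4640 to 5190 CPM, beside 14400 to 14600 CPM for neuronal markers. In wild-type tissue osk, needed in the germline, was at 1240 CPM in ovary. CG11247 RNA was lower in mutant 1 (brain 65.9 ± 0.713 against 87.8 ± 2.68 CPM in wild type; SD, n = 2) and not in mutant 2 (brain 107 ± 4.5 CPM). In ovary it was at 62.8 ± 4.08 CPM in wild type, 30.1 ± 0.733 in mutant 1 and 72.6 ± 2.27 in mutant 2 (SD, n = 3). In S2 cells, where auxin acts on the protein, CG11247 RNA was at 19.8 ± 2.14 CPM untreated and 26.8 ± 2.51 CPM at 48 h (SD, n = 2). In the S2 libraries the first principal component took 57.0% of the variance and separated replicate 1 from replicate 2. In ovary, wild-type replicate 2, mutant 1 replicate 1 and mutant 2 replicate 3 stood apart on the second component, and counts without them are given below. The labels do not tell whether replicates came from separate cultures or separate rounds of dissection, and the p-values cover only how far these libraries spread, which may be technical. In bulk RNA, fewer cells of a type and less RNA per cell cannot be told apart.

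Ribosomal protein genes took a large share of the S2 libraries and a small share of the brain libraries. They held 42.79% and 38.95% of counts in untreated S2 cells, 1.97% and 1.94% in wild-type brain, and 7.74%, 8.39% and 7.24% in wild-type ovary. The S2 kit counts the 3′ end of polyadenylated RNA and the tissue libraries were made from rRNA-depleted RNA, so the S2 share cannot be set against the others. The median gene stood at 4300 CPM in untreated S2 cells, and 82 of 90 reached 100 CPM. Per kilobase of transcript, the median was 284 CPM in wild-type brain and 1120 CPM in wild-type ovary, each scaled within its tissue.

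The highest levels belonged to different genes in the S2 kit and in the tissues. In untreated S2 cells RpL3, which lines the peptidyl transferase centre, was at 13500 ± 5380 CPM, RpS25 at 12700 ± 3890 CPM and RpL5, which binds 5S rRNA, at 12500 ± 1880 CPM (SD, n = 2). These neighbours in the order did not differ beyond their spread. In wild-type brain RpL41, the smallest ribosomal protein, led at 824 ± 27.6 CPM per kilobase, and RpS30 at 536 ± 6.14 and RpL31 at 522 ± 3.34 were also among the highest (SD, n = 2). RpL41 led in wild-type ovary too, at 3950 ± 85 CPM per kilobase (SD, n = 3), where RpL13A at 2490 ± 368 and RpL13 at 2070 ± 296 were among the highest and lay within each other's spread.

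Wild-type brain and ovary differed in nearly every member. With edgeR, 87 of 88 tested members were lower in brain than in ovary, against 42.8% of all 10029 genes called lower, and RpS14b was the exception. The median member was 2.61-fold higher in ovary, and 69 of 88 were at least 2-fold higher. Relative to the median of all genes, the members' median log2 difference was -1.48, and it was -1.49 with DESeq2's size factors and -1.5 with library totals. The median of all genes itself was at 0.104, 0.277 and -0.484 under the 3 scalings. Beside RpS5b, described below, the largest differences among members with ample counts were those of RpL34a at -2.48 ± 0.22 (log2, brain minus ovary, ± SE; edgeR adjusted p 5.14e-07), RpL13A at -2.31 ± 0.14 (7.17e-10) and sta at -2.25 ± 0.12 (7.1e-11). The gene sta encodes the fly laminin receptor homologue of the small subunit. The smallest called difference was that of RpS14a, at -0.26 ± 0.10 (edgeR adjusted p = 0.0182). Tissue and dissection cannot be told apart in this comparison.

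The paralogue pairs divided their output differently in the 3 systems. RpS5a and RpS5b encode the small-subunit protein near the channel where mRNA leaves. RpS5b was at 0.858 and 0.569 CPM in wild-type brain and at 888, 949 and 827 CPM in wild-type ovary. RpS5a was at 192 and 180 CPM in wild-type brain and at 906, 1040 and 846 CPM in wild-type ovary. Both copies were thus near the same level in ovary, while brain held almost only RpS5a. The wild-type difference of RpS5b was -9.64 ± 0.16 (log2, brain minus ovary, ± SE; edgeR adjusted p 3.92e-17).

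As a share of both copies, RpS5b made up 0.453 ± 0.364% in untreated S2 cells (SD, n = 2), 0.38 ± 0.0919% in wild-type brain (SD, n = 2) and 48.9 ± 1.01% in wild-type ovary (SD, n = 3). RpL34b, a large-subunit copy, was the main copy in every system, with 82.9 ± 5.87% in untreated S2 cells, 77.9 ± 0.566% in wild-type brain and 61.3 ± 1.7% in wild-type ovary. RpS14b held 7.81 ± 0.0424% in untreated S2 cells, 32.2 ± 0.141% in wild-type brain and 30.8 ± 1.17% in wild-type ovary. RpL24-like, whose yeast relative acts in assembly of the large subunit, held 5.5 ± 1.25%, 23.8 ± 0.424% and 14.9 ± 0.751% in the same order. Shares in S2 cells come from another kit than those in the tissues.

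The log2 ratio of second to first copy was tested between the 6 brain and 9 ovary libraries, with all genotypes pooled. For 6 of 7 pairs the tissues did not overlap, each with p = 0.0004 by a two-sided exact permutation test over libraries, the smallest it can give here, and 0.000466 adjusted over the 7 pairs. The ratio was lower in brain for RpS5b (difference -8.47) and RpS19b (-3.18), and higher in brain for RpL34b (0.99), RpL24-like (0.85), RpS15Ab (0.44) and RpL7-like (0.43). RpS19b rests on few counts in brain. For RpS14b the tissues overlapped and the difference was 0.13 (exact permutation p = 0.00839). With wild-type libraries alone the 7 differences had the same signs, and the exact permutation test of 2 against 3 libraries cannot go below p = 0.2.

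**Figure D1:**
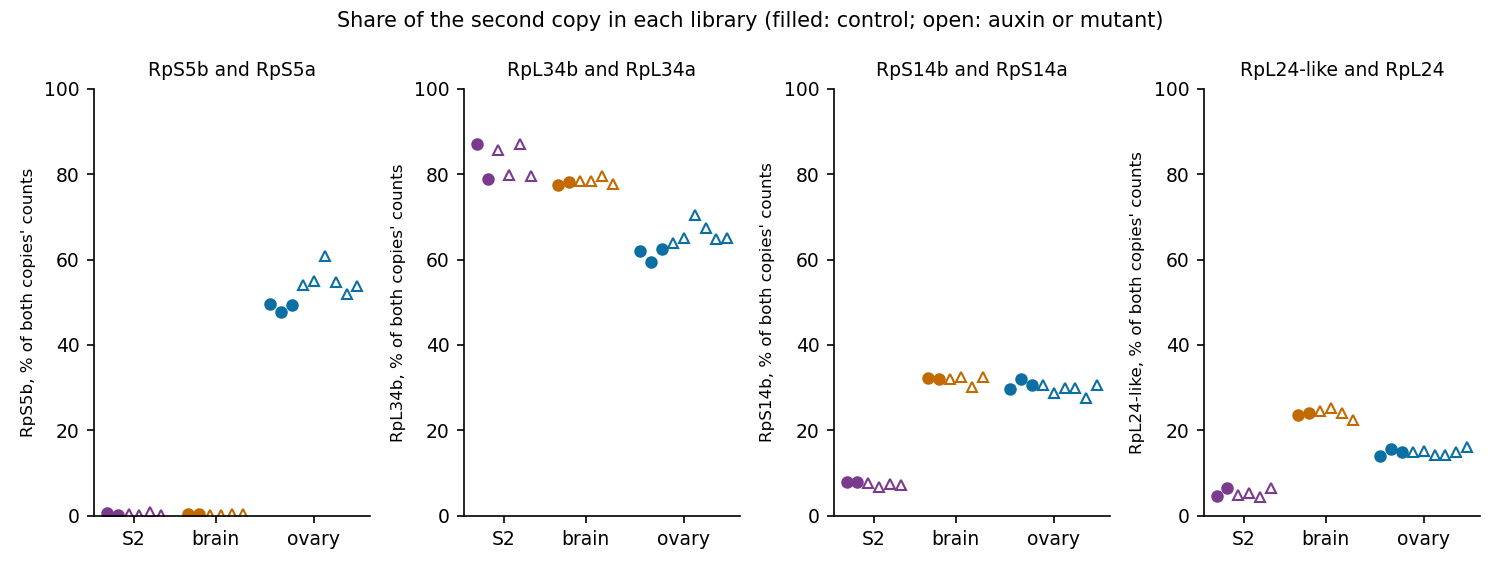
Share of the second copy in the counts of both copies of 4 paralogue pairs (y axis, percent), for every library of S2 cells, brain and ovary (x axis). Each point is 1 library, filled for controls and open for auxin or mutant. RpS5b lies near 0 in S2 cells and brain and near 50% in ovary, and in ovary all mutant points lie above the wild-type points for RpS5b and RpL34b.

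Some copies were barely detected in these libraries. RpS28a, RpS28-like and RpL10Aa had 0 counts in all 9 ovary libraries, which allows a level of up to 0.0188 CPM over the group, by counting error alone. RpL10Aa had 9 and 13 counts in the mutant 2 brains and 0 in the other 4 brain libraries, too few for the test. RpL37b was at no more than 0.138 CPM in any library, and RpL22-like held 0.0452% of the RpL22 pair in wild-type ovary. Reads of near-identical copies can be shared out between them by the quantification, so these values are uncertain. The same limit holds for the shares and ratios of the RpS14 and RpS15A pairs given above. Their estimated counts in brain and ovary were not whole numbers, such as 11106.7 for RpS14a and 5344.29 for RpS14b in mutant 1 brain replicate 2. The SD and p-values of these pairs do not cover it.

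The mutant ovary had lower RNA of many ribosomal protein genes. Over the mean of both mutants, 30 of 88 tested members fell and 0 rose against wild type (edgeR, adjusted p under 0.05). Of all 8312 genes, 14% were called lower and 14.6% higher. Unadjusted p was under 0.05 for 2 higher and 44 lower members, beside 1815 higher and 1661 lower genes. DESeq2 called 1 member higher and 39 lower. Shares of all genes called are throughout those of edgeR's main fit, and those under DESeq2 are not reported here. The members' median log2 change was -0.16, with an interquartile range of -0.29 to -0.05, and the median of all genes was within 0.03 of 0. Changes ran from -0.79 (RpS19b, at 6 to 24 counts in wild type, which did not pass) to 0.31 (RpL39). For 18 of the 88 tested members all 6 mutant libraries lay below all 3 wild-type libraries, near the share of 14.7% over all genes.

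RpS5a, the copy that brain and S2 cells also use, was among the 18. It was at 906, 1040 and 846 CPM in wild type, 730, 679 and 557 in mutant 1, and 723, 693 and 681 in mutant 2. All mutant libraries lay below the lowest wild-type library. The log2 change of RpS5a over both mutants was -0.46 ± 0.08 (SE; edgeR adjusted p = 0.00291). Its copy RpS5b, at 888, 949 and 827 CPM in wild type, was at 859, 834 and 864 in mutant 1 and 875, 752 and 793 in mutant 2. Here the groups overlapped, and the change was -0.10 ± 0.06 (edgeR adjusted p = 0.225).

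RpL13A, a large-subunit protein that in mammals also silences mRNAs outside the ribosome, was at 1900, 2370 and 1810 CPM in wild type, 1620, 1460 and 1140 in mutant 1, and 1470, 1510 and 1510 in mutant 2. The groups did not overlap, and the change was -0.48 ± 0.11 (log2, SE; edgeR adjusted p = 0.01). RpS6, the target of S6 kinase, was at 1860, 2190 and 1720 CPM in wild type, 1570, 1430 and 1250 in mutant 1, and 1570, 1460 and 1510 in mutant 2. It too lay lower in every mutant library, by -0.39 ± 0.08 (edgeR adjusted p = 0.00602). RpS12, which in flies is needed for the competitive loss of Minute cells, was at 821, 1010 and 768 CPM in wild type, 704, 630 and 565 in mutant 1, and 664, 640 and 648 in mutant 2. The RpS12 groups did not overlap, with a change of -0.43 ± 0.09 (edgeR adjusted p = 0.0047).

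Further large-subunit members fell by similar amounts over both mutants. RpL37a changed by -0.46 ± 0.11 (log2, SE; edgeR adjusted p = 0.0121) and RpL23A, which sits at the exit of the peptide tunnel, by -0.37 ± 0.09 (0.0101). RpL4, which lines the tunnel, changed by -0.36 ± 0.09 (edgeR adjusted p = 0.0107), RpL28 by -0.49 ± 0.14 (0.0355) and RpL34a by -0.57 ± 0.17 (0.0416). Wild-type replicate 2 was the highest library for all of these. RpL34a, for example, was at 393, 541 and 352 CPM in wild type, 350, 297 and 224 in mutant 1, and 286, 287 and 292 in mutant 2. The copy RpL34b also fell, by -0.26 ± 0.09 (edgeR adjusted p = 0.0419), with overlapping groups. Other members called lower were RpL3, RpL8, RpL9, RpL11, RpL12, RpL13, RpL19, RpL7A and RpL22 of the large subunit and RpS3, RpS9, RpS15, RpS18, RpS19a, RpS28b and RpS29 of the small subunit, beside RpLP0 and RpL40.

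Of the proteins of the stalk, where the elongation factors bind, RpLP0 passed the test and RpLP1 and RpLP2 did not. RpLP0, the base of the stalk, was at 2000, 2270 and 1840 CPM in wild type, 1760, 1570 and 1440 in mutant 1, and 1700, 1600 and 1480 in mutant 2. The RpLP0 groups did not overlap, and it changed by -0.36 ± 0.08 (log2, SE; edgeR adjusted p = 0.00732). The acidic proteins RpLP1 and RpLP2 were at -0.10 ± 0.06 (edgeR adjusted p = 0.226) and -0.08 ± 0.09 (0.491). Of the members made as fusions with ubiquitin, RpL40 fell by 0.18 on the log2 scale (edgeR adjusted p = 0.0422), and RpS27A was at 0.12 ± 0.07 (0.236). RpL39, which lines the tunnel exit, was the only member whose mutant libraries all lay above wild type (15.6% of all genes), at 256, 231 and 243 CPM in wild type, 277, 284 and 380 in mutant 1 and 335, 270 and 266 in mutant 2. Its change was 0.31 ± 0.12 and did not pass the test (edgeR adjusted p = 0.0729).

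**Figure D2:**
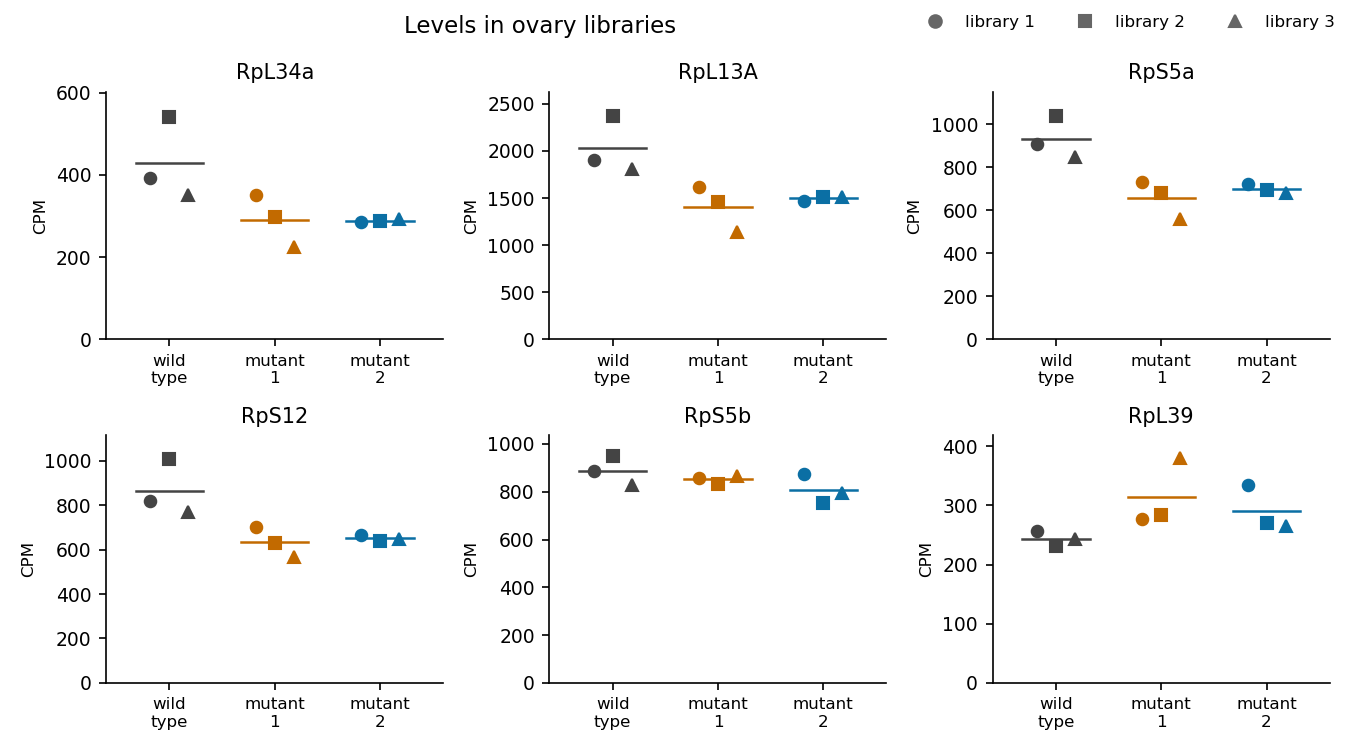
CPM (y axis, linear from 0) of RpL34a, RpL13A, RpS5a, RpS12, RpS5b and RpL39 in each ovary library, by genotype (x axis; n = 3 each), with points for libraries and lines for group means. RpL34a, RpL13A, RpS5a and RpS12 lie lower in all 6 mutant libraries, RpS5b overlaps between genotypes, and RpL39 lies higher.

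Each mutant was also set against the same 3 wild-type libraries, so the 2 comparisons are not independent. In mutant 1, 20 of 88 members fell (11.2% of all genes called lower), and in mutant 2, 17 fell (7.35%). In both, edgeR called 0 members higher (12.2% and 8.77% of all genes). At unadjusted p under 0.05, 2 and 1 members were higher, beside 1674 and 1451 of 8312 genes. DESeq2 called 1 higher and 26 lower in mutant 1 and 28 in mutant 2. RpS5a changed by -0.51 ± 0.10 in mutant 1 and -0.41 ± 0.10 in mutant 2 (log2, SE; edgeR adjusted p = 0.00505 and 0.0183). RpS3, at the channel where mRNA enters, changed by -0.38 ± 0.08 in mutant 1 (edgeR adjusted p = 0.00596). Between the mutants, edgeR and DESeq2 called 0 of 88 members (0.012% of all genes called), and the median difference was -0.00. At unadjusted p under 0.05 (edgeR), 1 member was lower in mutant 2, beside 126 of 8312 genes.

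The number of ovary calls moved with single libraries. The share of all genes called in each such fit is not reported here. For both mutants together, 30 became 17 without wild-type replicate 1 and 11 without wild-type replicate 2. It became 20 without mutant 1 replicate 2 or without mutant 2 replicate 2. For mutant 1 it became 6 without mutant 1 replicate 2, 8 without mutant 1 replicate 3, 13 without wild-type replicate 1, 5 without wild-type replicate 2 and 31 without wild-type replicate 3. For mutant 2 it became 0 without mutant 2 replicate 2 or wild-type replicate 2, 4 without wild-type replicate 1, and 0 lower with 1 higher without mutant 2 replicate 3. Without the 3 libraries apart on the second component, chosen after seeing the data, the counts were 19 for both mutants, 20 for mutant 1 and 2 for mutant 2, and the members' medians were -0.09, -0.12 and -0.05. The members' median stayed below 0 in every fit that left out 1 library, between -0.21 and -0.11 for both mutants. RpS5a, RpL13A, RpL37a, RpS12, RpS6 and RpL23A passed for both mutants in each of the 9 fits that left out 1 library. RpL4 did not pass without wild-type replicate 2 (edgeR adjusted p = 0.0555). RpL28 and RpL34a lost the call in 5 and 7 of the 9 fits, with edgeR adjusted p up to 0.144 and 0.148. RpS5a and RpS3 kept the call in mutant 1 in every such fit, while RpS5a lost it in mutant 2 without mutant 2 replicate 2, mutant 2 replicate 3 or wild-type replicate 2.

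Within the ovary pairs, the ratio of second to first copy was higher in mutants for RpS5b and RpL34b. The RpS5b share was 56.6 ± 3.65% in mutant 1 and 53.5 ± 1.42% in mutant 2, against 48.9 ± 1.01% in wild type (SD, n = 3). The RpL34b share was 66.5 ± 3.5% and 65.8 ± 1.42%, against 61.3 ± 1.7%. The log2 ratio changed by 0.36 and 0.30, with no overlap of mutant and wild-type libraries (two-sided exact permutation p = 0.0238 for each, the smallest that 6 against 3 allows, and 0.0833 adjusted over 7 pairs). Neither passed after adjustment. The sum of RpS5a and RpS5b was 1790, 1990 and 1670 CPM in wild type, 1590, 1510 and 1420 in mutant 1, and 1600, 1440 and 1470 in mutant 2. The summed level was lower in all mutant libraries.

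Markers of other cell types moved with genotype in the ovary. Summed follicle cell markers ranged over 23400 to 28700 CPM for wild type. The range was 15900 to 19400 for mutant 1 and 15000 to 19600 for mutant 2. Over the mean of both mutants, 6 of 12 follicle cell markers fell and 1 rose. Of the 12, 3 are yolk protein genes that the fat body also expresses. The defining marker tj ranged over 190 to 194 CPM for wild type, 134 to 149 for mutant 1 and 145 to 166 for mutant 2. Summed germline markers were at 7540 to 7990 CPM in wild type and 7770 to 8170 in the mutants. Summed fat body markers were at 8780 to 12600 CPM in wild type and 6830 to 7740 in the mutants; of 7 tested Yp1 and Yp2 fell, both also in the follicle cell list, and Lsp1gamma rose by 0.89 on the log2 scale. Summed hemocyte markers ranged over 1180 to 1240 CPM for wild type. The range was 705 to 848 for mutant 1 and 662 to 1120 for mutant 2. Over the mean of both mutants, 4 of 11 tested hemocyte markers fell and 2 rose. Summed muscle markers ranged over 219 to 242 CPM for wild type. The range was 264 to 302 for mutant 1 and 256 to 454 for mutant 2. Over the mean of both mutants, 3 of 6 tested muscle markers rose. The part of these cell types in the decrease of ribosomal protein genes was not tested.

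**Figure D3:**
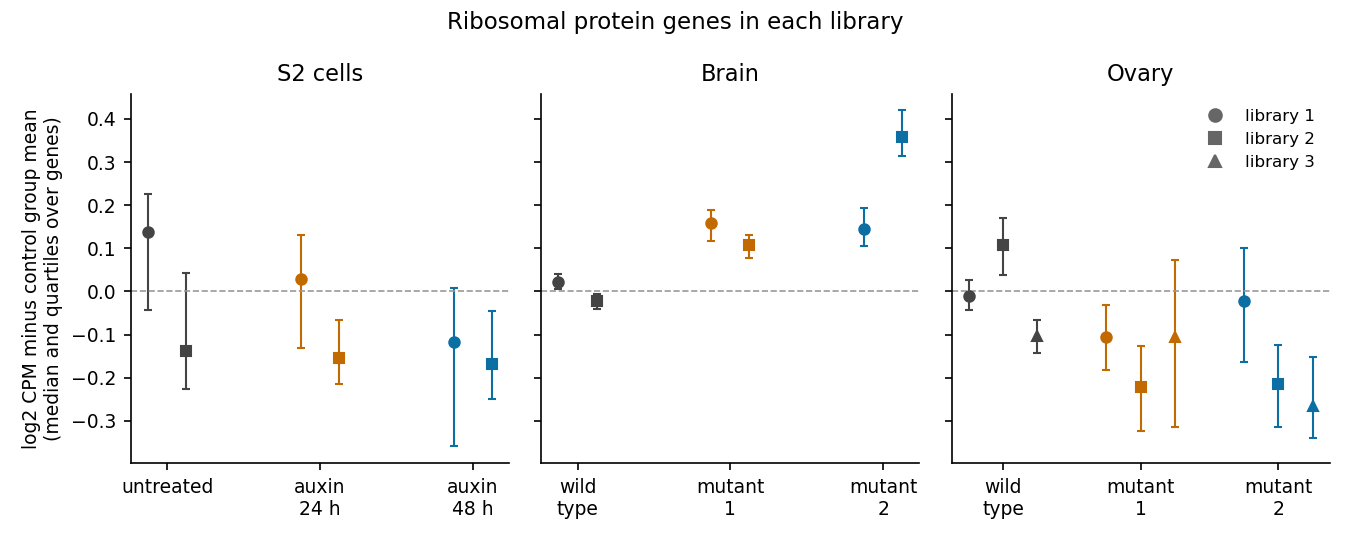
Median over ribosomal protein genes of the log2 CPM relative to the control mean (y axis), for each library (x axis) of S2 cells, brain and ovary; bars on each point span the quartiles over genes. All 4 mutant brain libraries lie above both wild-type brains, while the ovary genotypes overlap, with wild-type replicate 3 at -0.103 below mutant 2 replicate 1 at -0.021.

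In the brain the members lay higher in the mutants, by small amounts. Over both mutants, 84 of 85 tested members had a positive log2 change with a median of 0.20, and 7 rose (2.26% of all 9880 genes called higher; edgeR). At unadjusted p under 0.05 (edgeR) there were 62 members, all higher, beside 696 of all 9880 genes higher and 488 lower. For 71 members all 4 mutant brains lay above both wild-type brains, against 12.6% of all genes. The interquartile range over members was 0.16 to 0.23, and the median of all genes was within 0.03 of 0.

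RpL38, a large-subunit protein that in mouse is needed for translation of Hox mRNAs, had the largest increase of the 7. It was at 109 and 109 CPM in wild type, 131 and 125 in mutant 1, and 145 and 154 in mutant 2. Both mutants lay above wild type, and mutant 2 above mutant 1. The change over both mutants was 0.34 ± 0.05 (log2, SE; edgeR adjusted p = 0.00392). RpLP1 of the stalk was at 155 and 148 CPM in wild type, 180 and 172 in mutant 1, and 185 and 190 in mutant 2. Its groups did not overlap, with a change of 0.27 ± 0.05 (edgeR adjusted p = 0.0156).

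The other 5 that rose over both mutants were of both subunits. RpS7 stood at 205 and 197 CPM (wild type), 235 and 234 (mutant 1) and 244 and 270 (mutant 2), and changed by 0.29 ± 0.05 (log2, SE; edgeR adjusted p = 0.0185). RpS27A, made as a ubiquitin fusion, was at 166 and 170 CPM in wild type, 194 and 188 in mutant 1, and 204 and 210 in mutant 2, and changed by 0.24 ± 0.04 (edgeR adjusted p = 0.0172). Both genes were higher in every mutant brain. RpS20 changed by 0.27 ± 0.05 (edgeR adjusted p = 0.0209), RpS15Aa by 0.24 ± 0.05 (0.0203) and RpL21 by 0.24 ± 0.05 (0.0325). RpLP0, RpLP2 and sta were at 0.20 ± 0.08, 0.19 ± 0.07 and 0.27 ± 0.08 and did not pass (edgeR adjusted p = 0.325, 0.345 and 0.203).

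**Figure D4:**
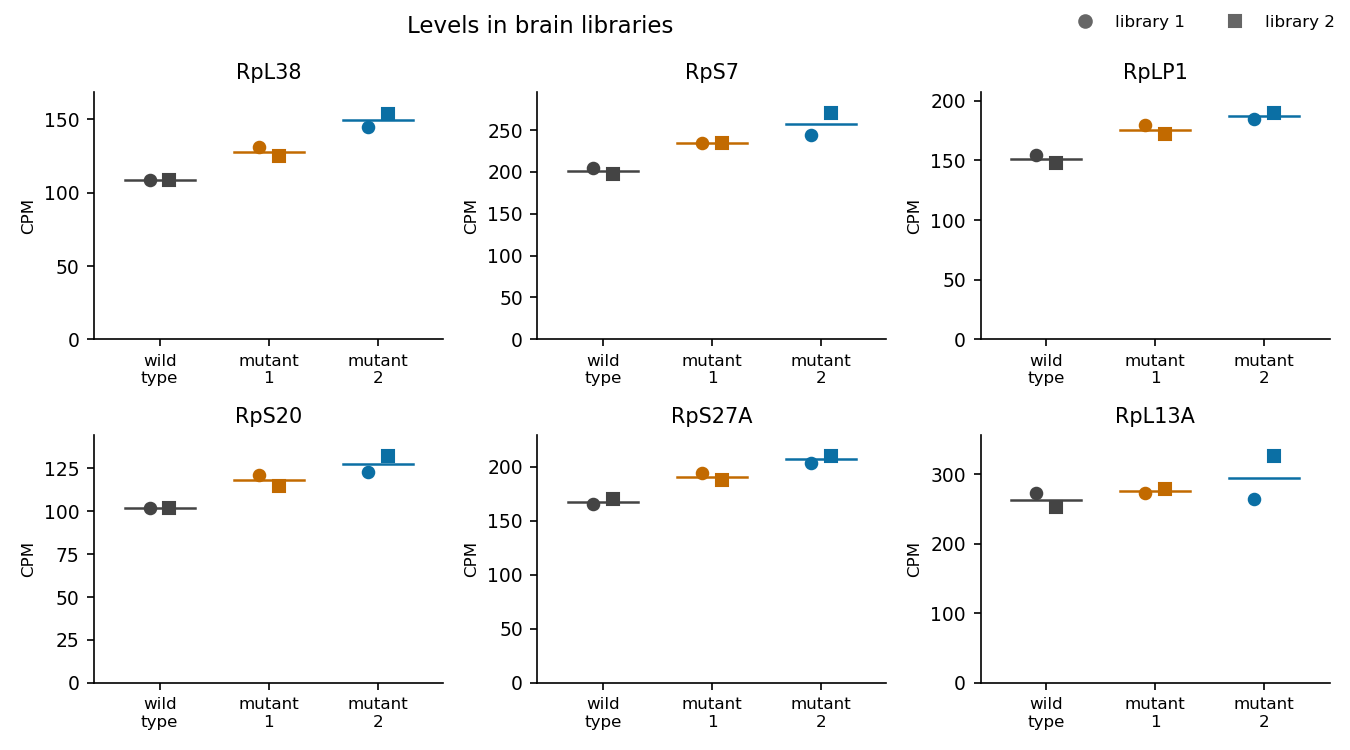
CPM (y axis, linear from 0) of RpL38, RpS7, RpLP1, RpS20, RpS27A and RpL13A in each brain library, by genotype (x axis; n = 2 each), with points for libraries and lines for group means. For RpL38, RpS7 and RpLP1 all mutant brains lie above both wild-type brains, and for RpL13A the groups overlap.

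The 2 mutants were also set one by one against the wild-type brains, which they share. In mutant 2, 13 of 85 members rose (2.23% of all genes called higher) with a median of 0.26, and all 85 had a positive change. In mutant 1 the median was 0.13 and 83 of 85 were positive, but edgeR called 0 (1.9% of all genes called higher). At unadjusted p under 0.05, 17 members were higher, beside 528 of 9880 genes higher and 394 lower. DESeq2 called 5 members. The largest positive change in mutant 1 was that of RpL38, 0.23 ± 0.05 (log2, SE; edgeR adjusted p = 0.0834), against 0.45 ± 0.05 in mutant 2 (0.0018). RpL29, a large-subunit protein, was at 147 and 142 CPM in wild type, 174 and 153 in mutant 1, and 178 and 201 in mutant 2. Mutant 2 replicate 2 was the highest library for RpL29, which rose in mutant 2 by 0.39 ± 0.08 (edgeR adjusted p = 0.0386). Between the mutants, edgeR and DESeq2 called 0 of 85 members (0.0405% of all genes called). At unadjusted p under 0.05 (edgeR), 9 members were higher in mutant 2, beside 140 of 9880 genes. The median difference was 0.13, or 0.02 without mutant 2 replicate 2.

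Mutant 2 replicate 2 had the highest median of all brain libraries, 0.358 above the wild-type mean on the log2 scale, beside 0.145 in mutant 2 replicate 1 and 0.158 and 0.107 in mutant 1. The count of members called in mutant 2 was 73 without mutant 2 replicate 1, 13 without replicate 2, and 1 without either wild-type replicate; RpL38 was kept in all 4 of these fits, and RpL29 lost its call without mutant 2 replicate 2 (edgeR adjusted p = 0.117) or either wild-type replicate. Each of the fits without a library leaves 1 sample in a group, which is assumed to vary like the others. The share of all genes called in each such fit is not reported here. These counts therefore show only that the calls depended on single libraries. Over both mutants the count was 0 without either wild-type replicate, 1 without mutant 1 replicate 1, 4 without mutant 1 replicate 2, 71 without mutant 2 replicate 1 and 27 without mutant 2 replicate 2. Between the mutants it was 27 without mutant 2 replicate 1. The members' median stayed above 0 throughout, from 0.14 to 0.25 over both mutants, and in mutant 2 it went from 0.26 to 0.14 without mutant 2 replicate 2. DESeq2 called 39 in mutant 2 and 21 over both.

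Markers of blood cells and of fat body had lower sums in the mutant brains. Summed hemocyte markers ranged over 4640 to 5190 CPM for wild type, 3480 to 3680 for mutant 1 and 3290 to 3510 for mutant 2, and 11 of 13 tested fell over both mutants. Summed fat body markers were at 19000 to 24300 CPM in wild type and 14400 to 17400 in the mutants, where 3 of 9 tested fell and 1, Desat1, rose by 0.34 on the log2 scale. Their part in the increase of ribosomal protein genes was not tested.

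In S2 cells no member passed the test. On simulated counts the 24 h test recovered 9% of 2-fold and 0% of 1.25-fold changes, so even 2-fold changes would mostly be missed. With edgeR, 0 of 85 tested members were called at 24 h (0.0979% of 7152 genes), at 48 h (0.112%) or between them (0.0%), with 0 at unadjusted p under 0.05 at 24 h and at 48 h, and DESeq2 called 0 in each. The comparisons at 24 h and 48 h share the untreated libraries. The members' median log2 change was -0.08 at 24 h and -0.17 at 48 h, and only 2 of 85 were positive at 48 h. The median at 24 h was 0.07 without untreated replicate 1 and 0.03 without 24 h replicate 2, so its direction rests on those libraries, while at 48 h it was -0.28 to -0.03 when 1 library was left out.

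The replicate spread in S2 cells was wide for some members. RpS5a was at 1010 and 2340 CPM in untreated cells, 1120 and 1610 at 24 h, and 779 and 1960 at 48 h. RpL3 was at 17300 and 9650 CPM, 15800 and 11900, and 15300 and 10100 in the same order. The groups overlapped, with replicate 1 high for RpL3 and replicate 2 high for RpS5a in each group. At 48 h, 19 of 85 members had both auxin libraries below both untreated libraries, against 10.4% of all genes. RpS19a was among them, at 2320 and 2460 CPM untreated and 1630 and 2160 CPM at 48 h, with a change of -0.34 ± 0.20 that did not pass (edgeR adjusted p = 1.0).

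Set side by side, the direction was most often down in S2 cells, up in brain and down in ovary. Of the 84 members tested in all 3 systems, 70 had a negative change at 48 h of auxin, a positive change in mutant brain and a negative change in mutant ovary (83.3%), beside 712 of 6438 genes (11.1%). A further 12 were negative in S2 cells and positive in both tissues. These are signs of estimates, most of which did not pass a test of their own, and members share libraries. The S2 direction leaned on untreated replicate 1, without which the members' median at 48 h went from -0.17 to -0.03. Relative to the untreated mean, untreated replicate 2 had a median of -0.139, between the 48 h libraries at -0.118 and -0.167. Across the 85 members tested in both tissues, the change in brain and in ovary had a correlation of 0.23, a description over genes that share libraries. No member rose in brain mutant 2 and was also among the 30 that fell in ovary.

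**Figure D5:**
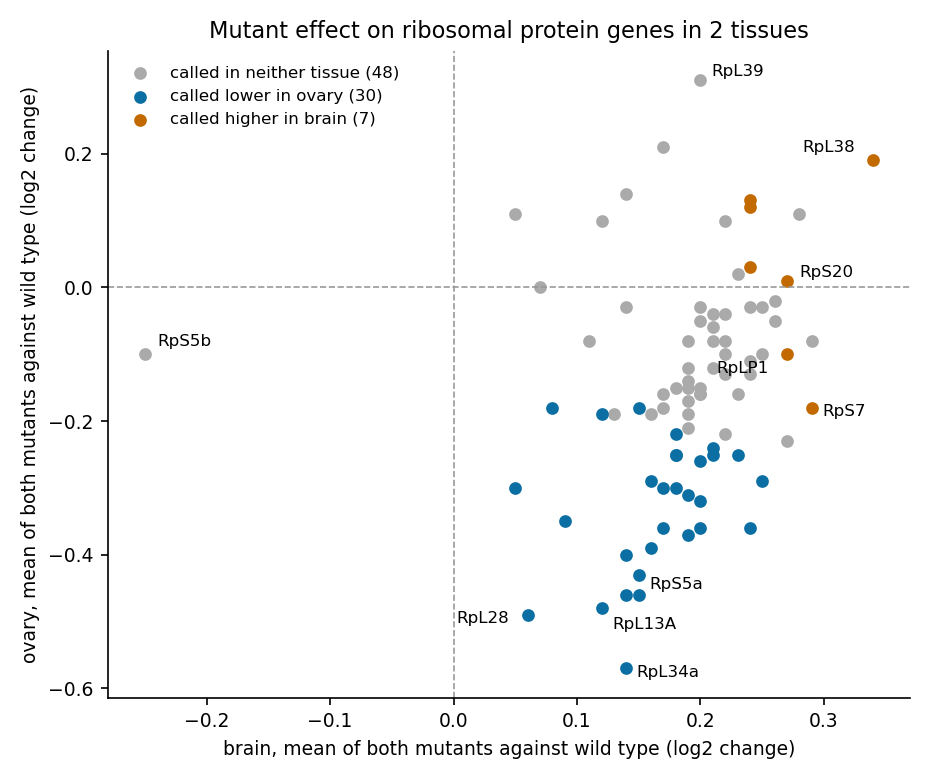
Log2 change over both mutants in brain (x axis) and ovary (y axis) for each ribosomal protein gene tested in both, coloured where it was called in either tissue. Most points lie right of 0 and below 0, RpL38 lies farthest right at 0.34, and RpS5b alone lies left of 0.

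The difference between the tissues was tested directly, as ovary change minus brain change. With edgeR, 19 of 88 members had a lower change in ovary and 0 a higher one (2.62% of 10029 genes called lower and 3.67% higher; 0 members higher at unadjusted p under 0.05 or with DESeq2), and the median difference was -0.32. DESeq2 called 57 lower, and edgeR with DESeq2's size factors 39. Shares of all genes called in these fits, or in those below without a library, are not reported here. RpS5a differed by -0.58 ± 0.12 (log2, SE; edgeR adjusted p = 0.0114), from 0.15 in brain to -0.46 in ovary. RpS7 differed by -0.44 ± 0.09 (edgeR adjusted p = 0.0108), from 0.29 to -0.18. RpLP0 and RpLP1 of the stalk differed by -0.53 ± 0.13 (edgeR adjusted p = 0.0216) and -0.33 ± 0.09 (0.0313). The count fell to 0 without brain wild-type replicate 2 and to 2 without brain wild-type replicate 1. It was 6 to 8 without any of brain mutant 1 replicate 1 or 2, brain mutant 2 replicate 2, and ovary wild-type replicate 1 or 2. It was 11 without ovary mutant 1 replicate 2 or mutant 2 replicate 2, and 30 to 40 without brain mutant 2 replicate 1, ovary wild-type replicate 3, ovary mutant 1 replicate 1 or ovary mutant 2 replicate 1. The median stayed between -0.37 and -0.26.

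In mutant ovary, over both mutants against wild type, 11 of 37 tested members of the small subunit fell and 19 of 51 of the large. Both had a median of -0.16, and 14% of all 8312 genes were called lower. The counts that follow are of the same comparison. By chromosome arm the called members were 3 of 18 on 2L, 6 of 19 on 2R, 6 of 14 on 3L, 8 of 21 on 3R and 7 of 15 on X. Of the other genes on these arms 12.0%, 13.4%, 12.8%, 13.5% and 17.5% were called lower, in the same order. Members with a snoRNA in the gene fell in 14 of 29 cases (median -0.18) and the others in 16 of 59 (-0.14). Members with transcripts shorter than the members' median of 707.5 bp fell in 10 of 43 cases (median -0.12) and longer ones in 20 of 45 (-0.18), while 7.92% of other short genes (median 0.07) and 14% of other long genes (median 0.00) were called lower.

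Genes that work with the ribosome were followed by lists chosen with these data known, and in the ovary their counts stand beside 14% of all genes called lower and 14.6% called higher. Of 37 tested translation factors, 15 fell in mutant ovary over both mutants (median -0.15), among them Ef1gamma at -0.44 ± 0.08 (log2, SE; edgeR adjusted p = 0.00248) and EF2, which moves the ribosome along mRNA, at -0.40 ± 0.08 (0.00324). In brain 2 of 37 rose over both mutants (median 0.09), where 2.26% of all 9880 genes were called higher. The 2 were Ef1beta at 0.48 ± 0.08 (edgeR adjusted p = 0.013) and eIF-1A at 0.24 ± 0.05 (0.0281). Of 44 tested ribosome biogenesis genes, 25 fell and 3 rose in ovary (median -0.19), with nclb at -0.57 ± 0.10 (edgeR adjusted p = 0.00328) and l(2)37Cg, a subunit of RNA polymerases, at -0.39 (0.0143). Their median in brain was 0.00. Of 73 tested mitochondrial ribosomal protein genes, 19 fell and 2 rose in ovary (median -0.07), and their median in brain was 0.03. Of 17 tested regulators of ribosomal protein genes, 3 rose in ovary, a share close to that of all genes, among them crc, the fly ATF4, at 0.21 (edgeR adjusted p = 0.0157) and maf-S at 0.40 (0.0128). In S2 cells the translation factors had medians of -0.04 at 24 h and -0.06 at 48 h.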

How the data were processed

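The authors deposited raw counts per transcript for S2 cells (QuantSeq 3′ end kit, per the labels' protocols) and estimated counts per gene for brain and ovary (rRNA-depleted, stranded). Salmon 1.2.1 and Trim Galore 0.6.2 and the build dm3 are named in the submitters' processing notes; the tool behind the S2 counts is not given in those sources. Estimated counts were rounded. Each S2 gene took its isoform with the highest total, since 49 members had isoforms with identical counts; 87 of 92 members matched the BDGP6 annotation by identifier and 5 by symbol, and 356 of 26009 S2 transcripts matched no gene (0.361 to 0.418% of counts).

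Tests used edgeR 4.0.16 (TMM, filterByExpr, robust quasi-likelihood, Benjamini-Hochberg over all genes, threshold 0.05) in R 4.3.3, within each system, and over brain and ovary for tissue contrasts. SE is the log2 change divided by the root of F. DESeq2 1.42.0 was an alternative. The paralogue ratio added 0.5 counts to each copy and was tested by exact permutation over libraries (scipy 1.17.1). The script was tested on simulated counts with known changes of 2-fold and 1.25-fold. It recovered 9% and 0% of them for S2 cells at 24 h, 91% and 15% for brain mutant 1, and 93% and 52% for ovary mutant 1. Low counts left 85, 85 and 88 members tested in S2 cells, brain and ovary. S2 numbers 1 and 2 correlated at 0.59 to 0.72, brain numbers at 0.045 to 0.19 and ovary numbers at -0.34 to 0.27, and no block entered the tests, S2 cells having only 2 numbers. Named members were the 10 largest called changes, or the largest 3 where none was called, with copies, stalk proteins and ubiquitin fusions. The members and lists were chosen with earlier results of these data known. Sequences were not used here. Some members are counted in the totals and not reported here by name.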

Additional observations from a re-analysis of the deposited data

Results flagged for a closer look

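The change between mutant and wild type differed between brain and ovary for 19 of 88 ribosomal protein genes, by a test of the difference itself in edgeR. Large differences (ovary change minus brain change, log2) were those of RpS5a at -0.58, RpL4 at -0.58, RpS12 at -0.55, RpL23A at -0.53, RpLP0 at -0.53, RpS6 at -0.53, RpS9 at -0.51, RpL3 at -0.46 and RpL11 at -0.45. In each of them the ovary change was negative and the brain change positive. These 9 lost the call without brain wild-type replicate 2, where edgeR adjusted p ran from 0.0904 to 0.181. Without brain wild-type replicate 1, RpS5a alone kept it (edgeR adjusted p = 0.045).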

How the results depend on the processing

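The S2 counts of called members were 0 under every alternative run, and the wild-type tissue difference held for 84 to 88 members. With DESeq2 the count of called members was 5 for brain mutant 1, 39 for brain mutant 2, 21 for both brain mutants, 28 for ovary mutant 2 and 57 for the ovary minus brain mutant change. Without the low-count filter it was 12 for both brain mutants. With library totals alone it was 9 for ovary mutant 2, and the splits were 1 higher and 16 lower for ovary mutant 1 and 2 higher and 21 lower for both ovary mutants. With DESeq2 size factors in edgeR (RLE) the ovary minus brain mutant change counted 39. Leaving out 1 library gave 1 to 73 for brain mutant 2, 0 to 71 for both brain mutants, 0 to 27 between the brain mutants, 5 to 31 for ovary mutant 1, 0 to 24 for ovary mutant 2, 11 to 42 for both ovary mutants and 0 to 40 for the ovary minus brain mutant change. Without the 3 ovary libraries apart on the second component, chosen after seeing the data, the counts were 2 for ovary mutant 2, 19 for both ovary mutants and 11 for the ovary minus brain mutant change. With wild-type libraries alone 0 paralogue ratios passed between tissues. The RpL24-like ratio between mutant and wild-type ovary, 0.01, ranged from -0.04 to 0.05 when 1 library was left out, with -0.04 without wild-type replicate 1 and -0.02 without mutant 2 replicate 3. The cause was not tested in any of these cases. The share of all genes called under each alternative is not reported here, so these counts stand without it. With the replicate block, counts were 0 in S2 cells, 12 for brain mutant 2, 7 for both brain mutants, 23 for ovary mutant 1, 19 for ovary mutant 2 and 34 for both ovary mutants, and moved no count by over 1.5 times. With 2 libraries a group, S2 cells and brain allow less precision than ovary.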
